A study of Homo sapiens and Mus musculus with 4 samples.

Results

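The enzyme genes of serine synthesis and folate one-carbon metabolism were examined for ATF4 binding in 2 deposited peak lists. They were chosen by name, as 9 members of a pathway, out of 20037 protein-coding genes. The members were PHGDH, PSAT1, PSPH, SHMT1, SHMT2, MTHFD2, MTHFD1, MTHFD1L and ALDH1L2. A listed peak counted for a gene where at least 1 base of it overlapped the gene span extended by 10 kb on each side. All 9 members had a span in the human gene table, and 3 of them had a rounded mouse position to search in place of a span. In human cells 1 member had a peak, MTHFD2, where 3.15% of all protein-coding genes had one. In mouse cells 2 of the 3 searched loci had peaks, Psat1 and Mthfd2. Adjoining windows of the sizes searched were laid along all autosomes, whether or not they held a gene. They held a mouse peak in 55.3% (Psat1), 35.7% (Mthfd2) and 62.3% (Phgdh) of cases, so the mouse count is near that background.

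The data came from chromatin immunoprecipitation followed by sequencing (ChIP-seq), which recovers the DNA bound by a protein with an antibody. There were 4 libraries in 4 groups of 1 library each. Anti-ATF4 ChIP of KG1a cells, a human acute myeloid leukaemia line grown with 20% foetal bovine serum, was set against input DNA of KG1a cells made without antibody. Anti-ATF4 ChIP of bone marrow cells from C57BL/6 mice was set against input DNA of such cells, likewise without antibody. A serum content of 20% is also given for the mouse ChIP and input groups. No gene deletion, drug or stress treatment is named for any group, and the labels do not give the age, sex or number of mice. Bone marrow is a mixture of cell types, and KG1a is a single cultured line, so neither list describes blood stem cells by themselves. Each comparison gave 1 peak list, of 873 peaks for KG1a and 83088 for mouse bone marrow, with a chromosome, start and end for each peak. The lists hold no height, read count or score, so depth is unknown and no value below has a replicate error or a test between samples.

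As background, serine is made from a glycolytic intermediate by PHGDH, which oxidises it, PSAT1, which adds the amino group, and PSPH, which removes the phosphate. SHMT1 in the cytosol and SHMT2 in mitochondria then turn serine into glycine and pass a carbon unit to folate. MTHFD2, MTHFD1L and ALDH1L2 handle that unit in mitochondria, and MTHFD1 in the cytosol. ATF4 is a transcription factor made when amino acids run short or other stress slows translation, and several of these genes are widely used as its targets. With a C/EBP partner it binds a composite element whose core letters are TGATGNAA.

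The reference sequences just before the starts of 4 members are shown as examples of the sequence searched for the motif. No listed KG1a peak overlapped these stretches, so they are not the sequences of peaks. RefSeq promoter windows of GRCh38.p14, reaching from 250 bases before to 50 after a start, were found for 6 of the 9 members, in 9 windows because MTHFD1L has 4 listed starts. PSPH, SHMT2 and ALDH1L2 were not matched. The MTHFD1L stretch lies on the plus strand at chr6:150866346-150866375, and its capitals mark the only exact match to TGATGNAA in the windows of the members. The other stretches are the 250 bases before the start, on the plus strand, of PHGDH at chr1:119711684-119711933, PSAT1 at chr9:78296875-78297124 and MTHFD2 at chr2:74198365-74198614. The capitals in PHGDH mark the place with a single mismatch to the narrower motif TGATGCAA, read on the other strand. PSAT1 and MTHFD2 have no capitals because they held no exact match to TGATGNAA and their closest places to TGATGCAA had 2 and 3 mismatches. Mismatches were counted against TGATGCAA alone, so closeness to TGATGNAA was not compared between these stretches.
MTHFD1L: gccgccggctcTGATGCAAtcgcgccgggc
PHGDH: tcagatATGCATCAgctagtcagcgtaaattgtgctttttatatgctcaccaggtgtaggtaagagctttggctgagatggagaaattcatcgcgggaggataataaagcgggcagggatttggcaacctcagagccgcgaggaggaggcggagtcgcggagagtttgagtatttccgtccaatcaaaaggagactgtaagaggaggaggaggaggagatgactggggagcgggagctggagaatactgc
PSAT1: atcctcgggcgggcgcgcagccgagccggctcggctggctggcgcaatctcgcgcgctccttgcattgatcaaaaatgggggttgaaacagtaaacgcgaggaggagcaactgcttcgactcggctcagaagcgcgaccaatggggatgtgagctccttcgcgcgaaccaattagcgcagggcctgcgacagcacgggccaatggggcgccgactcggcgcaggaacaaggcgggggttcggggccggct
MTHFD2: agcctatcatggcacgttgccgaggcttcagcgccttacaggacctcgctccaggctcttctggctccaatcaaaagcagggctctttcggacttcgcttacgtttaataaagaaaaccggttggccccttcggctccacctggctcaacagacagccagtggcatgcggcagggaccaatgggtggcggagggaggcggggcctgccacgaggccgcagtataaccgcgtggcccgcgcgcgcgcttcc

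In KG1a cells, the ATF4 ChIP set against input gave a peak at 1 of the 9 members, or 11.1%. The same rule found a peak at 632 of the 20037 protein-coding genes, or 3.15%, from which 0.284 members would be expected. A single gene in a list of 9 is too few to set the members apart from that background. That gene was MTHFD2, the mitochondrial enzyme that oxidises methylene-tetrahydrofolate. The other 8 members had no listed peak in their windows. Their nearest peaks lay between 217 kb and 10.2 Mb away.

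The MTHFD2 gene (chromosome 2, 74198615 to 74217565, GRCh38) runs on the plus strand and is 18951 bp long. Its peak, at 74198970 to 74199483, began 355 bp and ended 868 bp downstream of the annotated start, with its centre at 611 bp. The peak therefore lay wholly inside the gene, and 305 bases separated it from the end of the promoter window shown above. Exons and introns are not in the gene table, so it was not assigned to either. The peak was 514 bp wide, and 41 of the 873 peaks, or 4.70%, were wider. It stood in place 16 of the deposited order, which no column of the list explains. The neighbouring genes were farther from it, with SLC4A5 16.8 kb and MOB1A 20.1 kb from the peak, so within 10 kb MTHFD2 was the only gene of any type in the table. The next listed peaks lay 418 kb below and 290 kb above the MTHFD2 gene.

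**Figure D1:**
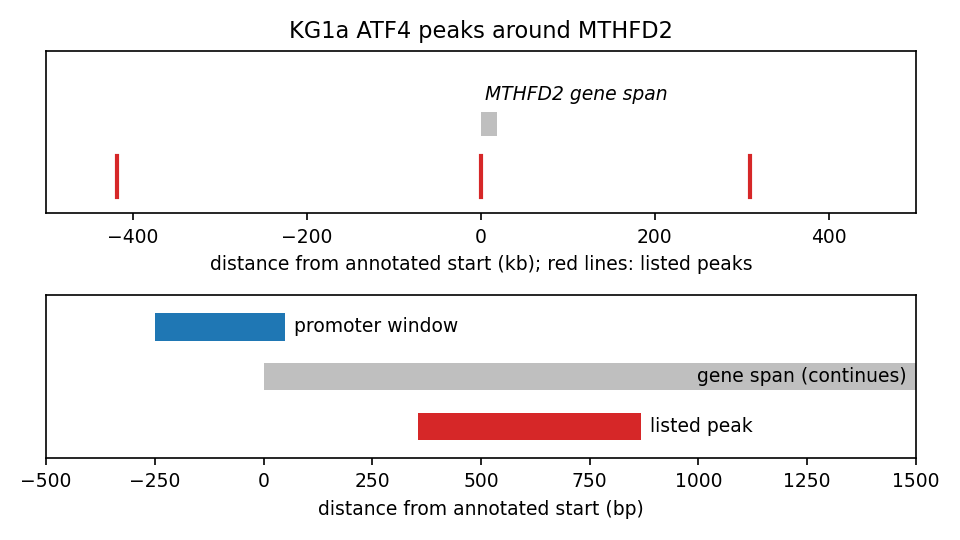
Listed KG1a ATF4 peaks around MTHFD2, by distance from its annotated start. The upper panel (kb) shows the gene span in grey and each listed peak as a red line. The lower panel (bp) shows the promoter window in blue, the gene in grey and the peak in red, from 355 to 868 bp downstream of the start and clear of the window.

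The MTHFD2 peak was one of the farther ones among the KG1a peaks close to a start. Of the KG1a peaks, 67 had their centre within 1 kb of a listed start of a protein-coding gene, with starts known for 15843 such genes. Of these, 25 lay downstream and 42 upstream or at the start, with a median offset of -86.0 bp. The centre was nearer to the start than that of MTHFD2 for 59 of the 67. The MTHFD2 peak was among the 4 centred 611 bp or more downstream. In the deposited order 5 of the 67 came before it. This position is a description of 1 peak in 1 list, with no test.

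The 3 serine synthesis genes had their nearest peaks well outside the gene, all on the low-coordinate side. PHGDH (chromosome 1, 119711934 to 119744215) was 217 kb from a peak of 600 bp at 119494387 to 119494986. PSPH (chromosome 7, 56011064 to 56051444) was 645 kb from a peak of 317 bp at 55366060 to 55366376. PSAT1 (chromosome 9, 78297125 to 78330093) was 753 kb from a peak of 329 bp at 77543403 to 77543731. The median protein-coding gene was 961 kb from a peak, and the middle 50% lay between 355 kb and 2.29 Mb. PSPH and PSAT1 were inside that range, and PHGDH was nearer to a peak than its lower bound. Of all such genes, 17.3% were nearer to a peak than PHGDH, 38.6% nearer than PSPH and 42.8% nearer than PSAT1. Each of the 3 genes had 1 peak within 1 Mb.

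Both serine hydroxymethyltransferase genes lay in long stretches without a peak. SHMT1, the cytosolic enzyme (chromosome 17, 18327873 to 18363550), was 10.2 Mb from its nearest peak, and 97.0% of protein-coding genes were nearer to one. SHMT2, the mitochondrial enzyme (chromosome 12, 57229711 to 57234935), was 7.20 Mb away, with 94.3% of genes nearer. The stretch around SHMT1 spanned 22.7 Mb between neighbouring peaks and ranked 7 among 846 such stretches from the longest, and that around SHMT2 spanned 14.6 Mb and ranked 18. The median stretch was 2.10 Mb. For both genes the empty window was thus shared with every other gene over many megabases.

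The remaining one-carbon genes of both compartments had no peak in their windows. ALDH1L2, which releases the carbon unit as carbon dioxide in mitochondria (chromosome 12, 105019790 to 105084458), was 339 kb from a peak of 380 bp. MTHFD1, the cytosolic enzyme with several activities (chromosome 14, 64388353 to 64460025), was 1.92 Mb from a peak of 488 bp. MTHFD1L, which makes formate in mitochondria (chromosome 6, 150865702 to 151101887), was 4.25 Mb from a peak of 330 bp, and 87.8% of genes were nearer to one. At 236 kb MTHFD1L is the longest of the 9 genes, so its window was the widest searched and still held no peak. Over all 9 members the median distance was 753 kb, against 961 kb for all protein-coding genes. Within 1 Mb, 5 members had a peak and 4 had none.

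**Figure D2:**
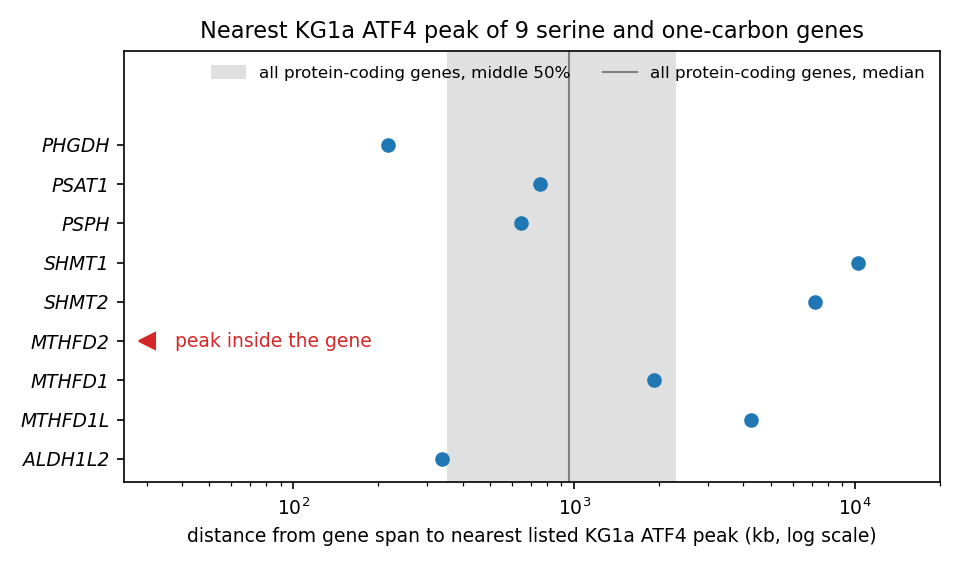
Distance from each of the 9 gene spans to the nearest listed KG1a ATF4 peak, in kb on a log scale. The red arrow marks MTHFD2, whose peak is inside the gene. Grey shows the middle 50% of protein-coding genes (355 kb to 2.29 Mb) and the line their median (961 kb), and SHMT1, SHMT2 and MTHFD1L lie to the right of the grey band.

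Sequence copies of the members were searched by the same rule. The gene table holds 14 pseudogenes named after 5 of the members, among them 7 of MTHFD2 and 4 of PSAT1. None of the 14 had a KG1a peak within 10 kb, where 0.623% of all 16845 pseudogenes in the table had one, so a count of 0 is near the background. The nearest peak was 257 kb from SHMT1P1. The labels and files do not say how reads that fit both a gene and its copy were treated.

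In the promoter windows searched, the letters of the ATF4 element were found at a member without a listed peak and not at the member with one. TGATGNAA was searched on both strands, and its only match among the members was the sequence shown above for MTHFD1L, 90 and 129 bp before 2 of its starts and 24 bp after another. These are the same 8 bases seen in 3 overlapping windows. Of the 6 members with a window, 1 held the motif, against 1217 of all 27305 genes with a window, or 4.46%. In MTHFD1L the match has the narrower form TGATGCAA, held by 1.08% of all 27305 genes with a window and 0.866% of all 35116 windows. Even so, no peak was listed within 4.25 Mb of the gene. In MTHFD2, the member with a peak, the window held no match, but the peak itself lies outside that window and its own sequence was not read. The looser motif TGANNCAA, which includes every TGATGCAA, was found in 1 of the 6 members as well, against 13.7% of all genes with a window.

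The same letters were counted in the promoter windows that a KG1a peak overlapped. Of 71 overlapped windows, 10 (14.1%) held TGATGNAA, against 3.62% of all 35116. For TGATGCAA the overlapped windows gave 7 (9.86%), against 0.866% of all. None of the 9 windows of the members was among the 71. These shares are given with no test, and windows of alternative starts overlap each other.

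Other genes of folate, glycine and methionine metabolism were counted by the same rule. Of 36 such genes, 2 had a KG1a peak, or 5.56%, beside 3.15% for all protein-coding genes, from which 1.14 would be expected. The 2 were MTR, methionine synthase, and SLC19A1, the reduced folate carrier of the plasma membrane. The MTR peak (chromosome 1, 236865334 to 236865665, 332 bp) was deep in the gene, 70.2 kb downstream of the nearest listed start, in place 427 of the list. The SLC19A1 peak (chromosome 21, 45551124 to 45551444, 321 bp) was inside the gene span, 11.7 kb from its high-coordinate end, in place 803. SLC19A1 runs on the minus strand with 4 listed starts, and the peak was 8.84 kb upstream of the nearest. Both were narrower than the median KG1a peak of 341 bp, whereas the MTHFD2 peak of 514 bp was wider. The other 34 genes were between 63.2 kb (ALDH1L1, the cytosolic counterpart of ALDH1L2) and 13.0 Mb (MAT2B, a regulatory subunit of methionine adenosyltransferase) from a peak, with a median of 848 kb.

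In mouse bone marrow, the peaks of ATF4 ChIP over input were searched at Psat1, Mthfd2 and Phgdh. Their positions on GRCm38 were given only to the nearest 10 kb, and no mouse annotation was used, so strand, start and exact span are not stated. The other 6 members were not analysed here in mouse. Windows with a peak are common in this list, so a peak in a window says little by itself. The windows were 40 kb for Psat1, 20 kb for Mthfd2 and 50 kb for Phgdh. For Mthfd2 the position was a single rounded point. Its window was therefore 10 kb each side of that point, not of a gene span, and may miss part of the gene.

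At Psat1, the aminotransferase gene of serine synthesis, 2 peaks fell in the window on chromosome 19 from 15890000 to 15930000. The wider, 2661 bp at 15897787 to 15900447, reached 448 bases into the low-coordinate edge of the rounded gene position. Only 5.80% of mouse peaks were wider. As the edge is rounded to 10 kb, whether this peak overlaps the Psat1 gene is not known. The other, 380 bp at 15928252 to 15928631, lay 8.25 kb beyond the high-coordinate edge, likewise rounded, and 71.3% of mouse peaks were wider. Together they covered 3041 bases, or 7.60% of the window. Of autosomal windows of this size 33.6% held 2 or more peaks, so the number of peaks was not unusual for the list.

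At Mthfd2 the window on chromosome 6, from 83300000 to 83320000, held 1 peak of 300 bp at 83308407 to 83308706. It was 1.29 kb from the rounded gene position. It was among the narrow peaks of the list, where 89.0% were wider and the narrowest measured 265 bp. It stood in place 82495 of 83088, near the end of the deposited order. The human MTHFD2 peak, in place 16 of 873 and with 4.70% of its list wider, stood near the other end in both respects. No column of either list explains its order, so a place is not known to be a rank of strength. The lists come from different species, single libraries and unknown depths, so the places and widths are set side by side and not compared by a test.

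At Phgdh, the gene of the first enzyme of serine synthesis, the window on chromosome 3 from 98300000 to 98350000 held 0 peaks. Of autosomal windows of 50 kb, 37.7% were likewise empty. The nearest peak was 17.4 kb beyond the high-coordinate edge of the rounded position. It opened a group of 4 peaks between 98357404 and 98374519, of 604, 876, 1625 and 1442 bp. On the other side the nearest peak was 40.5 kb away and 270 bp wide. Within 100 kb of the rounded positions there were 9 peaks at Phgdh, 6 at Psat1 and 2 at Mthfd2, and the genes to which the outer peaks belong were not assigned.

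**Figure D3:**
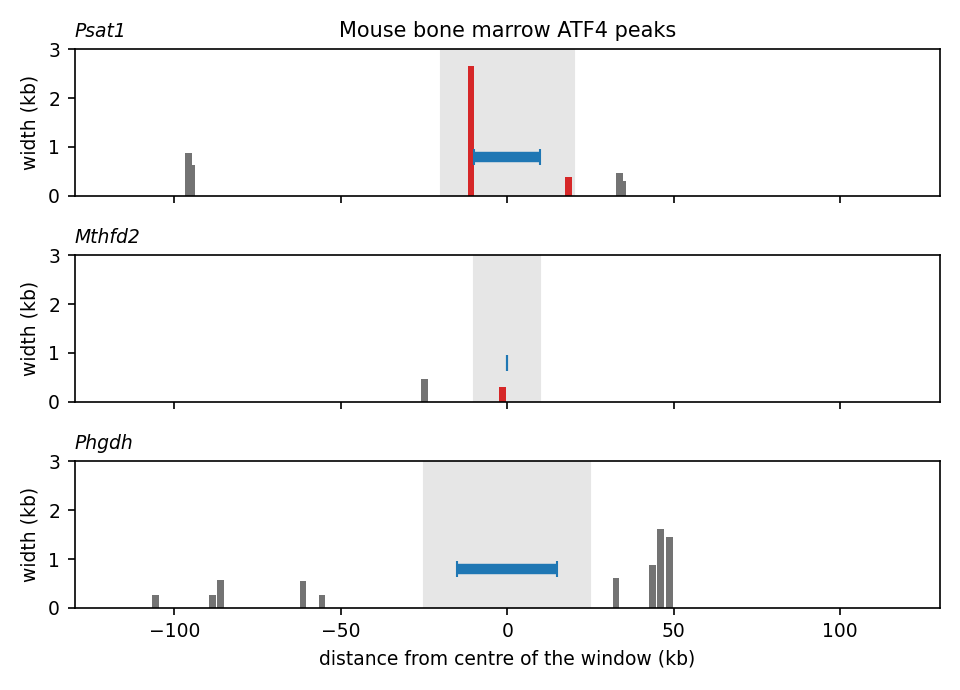
Mouse bone marrow ATF4 peaks within 100 kb of the rounded positions of Psat1, Mthfd2 and Phgdh, by distance from the centre of each window in kb. Bar height is peak width in kb, grey shading the window, red bars the peaks inside it, dark bars the peaks outside it, and blue the rounded gene position (a tick for Mthfd2). Psat1 has a red bar of 2661 bp, Mthfd2 one of 300 bp and Phgdh none.

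Set side by side, MTHFD2 and Mthfd2 had 1 peak each. The human window was a gene span plus 10 kb each side, whereas the mouse window surrounded a single rounded point. Of mouse windows of that size, 35.7% held a peak. The Mthfd2 peak fell outside a window of 1 kb each side of that point, which is smaller than the rounding of 10 kb. At PSAT1 the KG1a list had none within 753 kb, and the mouse list had 2 in the Psat1 window. PHGDH and Phgdh had none in either list, as was so for 37.7% of mouse windows of 50 kb. As 55.3% of mouse windows of that size held a peak, the Psat1 peaks cannot be read as a difference between the cells.

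**Figure D4:**
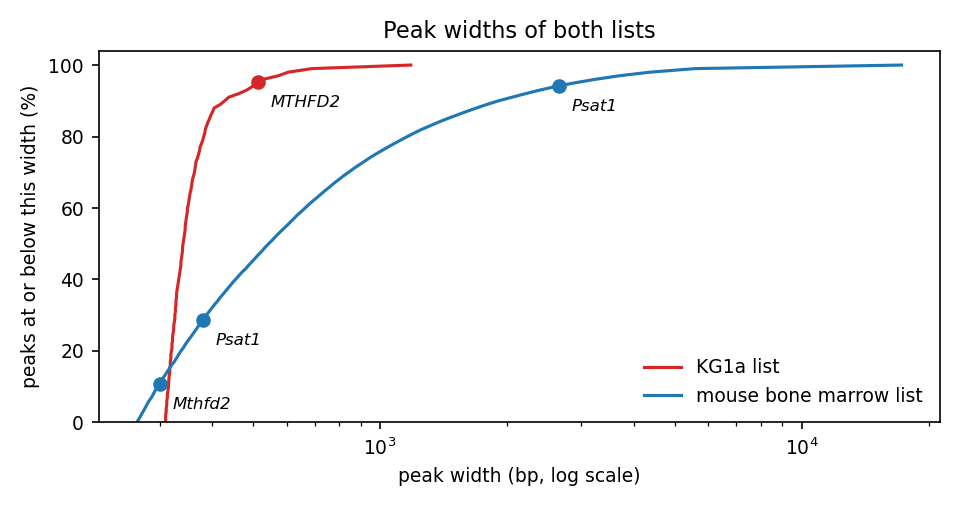
Share of peaks at or below each width (bp, log scale), in percent, for the KG1a list in red and the mouse bone marrow list in blue. Points mark the peaks in the windows of the members, with MTHFD2 (514 bp) high on the KG1a curve, and Psat1 (2661 and 380 bp) and Mthfd2 (300 bp) at widely spaced places on the mouse curve.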

How the data were processed

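The labels name ATF4 ChIP and input libraries of KG1a cells and mouse bone marrow, and 1 peak list for each pair. The tools named in the submitters' processing notes are Bowtie2, MACS2, deepTools and CASAVA 1.4, and the builds GRCh38 and GRCm38. The sources used here give neither their roles nor the peak threshold or any filter. The deposited values are positions in bases, from the 2 files of 3 columns with no header or score. Starts were read as counted from 0 and printed counted from 1. Peaks off the numbered chromosomes, X and Y were left out of the counts and distances at genes and windows. Widths, shares of wider peaks and places used all listed peaks.

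Human spans came from the RefSeq table of GRCh38.p14, whose chromosome coordinates are those of GRCh38. Mouse positions were rounded guides with no annotation behind them. The percentages for mouse windows used adjoining windows of the same size along all autosomes, not windows placed on genes. A member's neighbours, all 9 members and every other pathway gene with a peak were named by rule. Members and lists were chosen with earlier results of these data known. As each group has 1 library, no test was made. Design notes foresaw motif searches in peaks, which need a genome sequence and were not run, so promoter windows alone were searched. Alternatives were windows of 1, 5 and 50 kb, peak centres, wider peaks and other motifs. The counting code was tested on simulated data. Python 3.11.15, pandas 2.3.3, numpy 2.4.6 and matplotlib 3.10.9 were used.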

Additional observations from a re-analysis of the deposited data

How the results depend on the processing

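The count of KG1a members with a peak was 1 under the 5 alternatives run, which were windows of 1, 5 and 50 kb, peak centres and peaks at or above the median width. The 2 other pathway genes with a KG1a peak were still 2 under 4 of these and 0 with peaks at or above the median width, since the MTR and SLC19A1 peaks are narrower than the median. The 3 mouse peaks in the windows became 1 with windows of 1 kb each side, 12 with 50 kb, 1 with peaks at or above the median width and 1 with peaks of at least 1 kb, and were 2 with 5 kb and 3 by peak centre. With 50 kb Phgdh had 6 peaks, Psat1 4 and Mthfd2 2. With 1 kb Mthfd2 had none, as the peak lies 1.29 kb from the rounded position, a point known only to the nearest 10 kb. The count of members with the motif was 1 with each exact motif and 2, with PHGDH added, when 1 mismatch to TGATGCAA was allowed, an alternative chosen after seeing the data that 12.9% of all promoter windows also met. No paired analysis was possible because each group has 1 library. Depth is unknown, so a missing peak cannot be told apart from a peak below the threshold used, and the absence of a listed peak is not absence of binding.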
